A study of Saccharomyces cerevisiae with 11 samples.

Results

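The genes described here encode the proteins of the small subunit of the cytosolic ribosome of Saccharomyces cerevisiae. They were chosen by name: a gene was taken when its annotated symbol was RPS, a number and at most 1 final letter, A or B, in both deposited value tables. This gave 55 genes of the 5593 genes found in both tables. They form 31 families, of which 24 have an A and a B paralog (48 genes) and 7 have a single copy (RPS2, RPS3, RPS12, RPS13, RPS15, RPS20 and RPS31). All 55 had a value on all 11 arrays; 36 were averaged over 2 spots and 19 had 1 spot.

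The small subunit binds messenger RNA and is where codons are read. Its head and its body with the platform are assembled from ribosomal RNA and from proteins that each occur once per subunit. Most of these proteins in budding yeast are encoded by a pair of paralogs left from a whole-genome duplication, and their proteins are near-identical. Transcription of ribosomal protein genes is known to follow growth rate and nutrient supply through the TOR and protein kinase A pathways, and to fall in many acute stresses.

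The study grew strain S288C in a defined medium with sucrose, to which phosphate was added at 100 μM (low phosphate) or 1 mM (high phosphate). Arsenate, a chemical analogue of phosphate, was added to 2 μM, and the control cultures of every group received sodium chloride in its place. Cells were harvested at 4, 8 and 10 h. There were 2 arrays per time in low phosphate; in high phosphate there were 2 for each of the first and second times and 1 for the last. Arsenate RNA was labelled with Cy5 and control RNA with Cy3 throughout, with no dye swap, so any dye bias of a gene enters all of its ratios. The labels do not say whether replicate arrays came from separate cultures, so p-values measure only the spread between these arrays, which may be technical. The 2 phosphate conditions were run on different array designs, and phosphate and array design cannot be told apart. Fewer cells of a kind and less RNA per cell cannot be told apart in such bulk RNA.

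Values are the authors' deposited log ratios, taken here as log2 of arsenate over control. Neither the log base nor the direction is stated in the sources used here. A value of 1 is therefore read as a doubling. The number of arrays limits the precision. The median over all genes lay between -0.18 and 0.18 on every array. Replicate arrays correlated across all genes with r of 0.767, 0.936 and 0.836 for the 3 times of low phosphate, and with r of 0.547 at 4 h and 0.199 at 8 h in high phosphate. The first 8 h array of high phosphate stood apart for the small subunit genes: 11 of the 55 were below 0 on it, down to -2.17, while 53 of the 55 were above 0 on each of the other 4 high phosphate arrays. Where it decides a value named below, the value without it is given as well.

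In low phosphate the small subunit genes were higher in the arsenate cultures as a group. The median of the 55 genes was 0.21 and 0.47 on the 4 h arrays, then 1.17 and 1.10 on the 8 h arrays, and 0.76 and 0.82 on the 10 h arrays. Set against the median of all genes on the same array, these medians were higher by 0.28 and 0.29 at 4 h, by 1.27 on both arrays at 8 h, and by 0.72 and 0.74 at 10 h. The 8 h arrays were thus the highest and the 4 h arrays the lowest, with no overlap between the times. On the 8 h arrays, 97.7% and 98.2% of the other genes lay below the small subunit median. Of the 55 genes, 54 were above 0 on all 6 arrays, compared with 7.84% of the 4747 genes that had a value on each of them. The exception was RPS20, a protein of the head, with -0.07 on both 4 h arrays.

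Averaged over the 3 times, all 55 genes passed the test as higher in arsenate (limma, Benjamini-Hochberg adjusted p below 0.05 over 5185 genes, two-sided), where 19.1% of all genes were called higher and 20.1% lower. Their mean log2 ratios ran from 0.43 to 1.26, with a median of 0.77, and the median of all genes was -0.00. At single times, 25 genes were called higher at 4 h, where 14.7% of all genes were, 55 at 8 h (18.3% of all genes) and 52 at 10 h (20.2%). None was called lower at any of the 3 times, where 11.6%, 30.5% and 12.8% of all genes were. The count at 4 h rested on single arrays: it was 42 without the first 4 h array, where 27.8% of all genes were called higher, and 9 without the second, where 5.82% were. The genes not called at 10 h were RPS21A (0.14), RPS25B (0.24) and RPS28A (0.10).

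**Figure D1:**
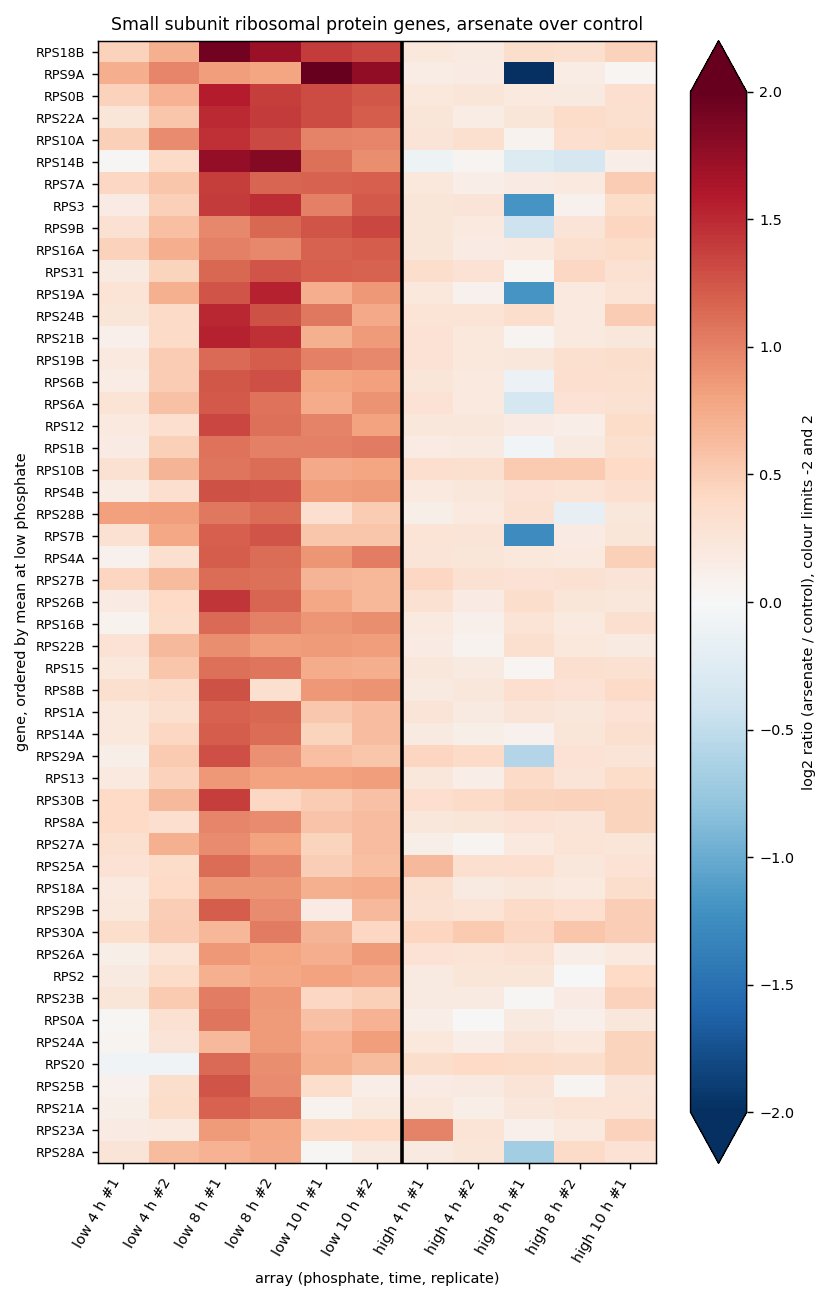
Log2 ratio of arsenate over control (colour, in log2 units) for small subunit genes (rows) on each of the 11 arrays (columns). The 8 h arrays of low phosphate have the highest medians over the 55 genes, 1.17 and 1.10, the highest single value is that of RPS9A on the first 10 h array (2.03), and the first 8 h array of high phosphate holds the 11 genes below 0, down to -2.17.

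The ordering of the genes showed no wide gap. When the 55 means were ranked, the largest gap between neighbours was 0.08, and 0 of the 54 gaps exceeded 2 standard errors. Single means had standard errors between 0.067 and 0.095, so the top and the bottom of the order were apart by far more than these errors, while neighbours were not. With 55 means in this range neighbours lie close in any case, so the gaps cannot tell whether the genes form separate classes.

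RPS18B, a protein of the head at the contact with the large subunit, had the highest mean, 1.26 (SE 0.07, adjusted p 2.16e-10 in limma). Its log2 ratios were 0.46 and 0.72 at 4 h, then 1.93 and 1.72 at 8 h, and 1.40 and 1.34 at 10 h. All 6 values were above the small subunit median of their array, and the times did not overlap.

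RPS9A, a protein of the body that binds ribosomal RNA early in assembly, followed with 1.19 (SE 0.07). It read 0.73 and 0.98 at 4 h, then 0.84 and 0.79 at 8 h, and 2.03 and 1.77 at 10 h. In contrast to most of the others it was no higher at 8 h than at 4 h, and was the highest small subunit gene on both 10 h arrays.

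RPS0B, a protein of the body at the rear of the subunit that is needed for the last steps of small subunit RNA maturation, had a mean of 1.11 (SE 0.07). Its ratios were 0.46 and 0.69, then 1.57 and 1.39, then 1.31 and 1.24 at the 3 times. RPS22A, a protein of the body, had a mean of 1.03 and ratios of 0.23 and 0.55, 1.50 and 1.40, and 1.31 and 1.21. For both genes the 4 h arrays lay far below the later ones, and the 8 h arrays were a little above the 10 h arrays.

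RPS10A, a protein of the head near the entry of the mRNA channel, had a mean of 1.03, from 0.48 and 0.94 at 4 h, then 1.46 and 1.33 at 8 h, and 1.00 and 0.98 at 10 h. Its 2 arrays at 4 h differed by more than those at the later times. Over all 55 genes the median SD between the 2 arrays of a time was 0.18 at 4 h, 0.07 at 8 h and 0.06 at 10 h. The first 4 h array was on average lower than the second by 0.24.

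At the other end, RPS28A, a head protein near the exit of the mRNA channel, had a mean of 0.43 (SE 0.07, adjusted p 0.000136). It read 0.26 and 0.64 at 4 h, then 0.69 and 0.76 at 8 h, and 0.03 and 0.18 at 10 h. Its 10 h arrays were the lowest of the 6, and the second 4 h array came close to those at 8 h.

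RPS23A, a protein beside the decoding centre, had a mean of 0.46, from 0.17 and 0.19, 0.84 and 0.78, and 0.39 and 0.40. RPS21A, which sits next to RPS0 in the subunit, had a mean of 0.51, from 0.12 and 0.37, 1.18 and 1.11, and 0.08 and 0.20. RPS23A moved little between arrays of a time. RPS21A rose at 8 h like the other genes but was back within its 4 h range or below it at 10 h.

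**Figure D2:**
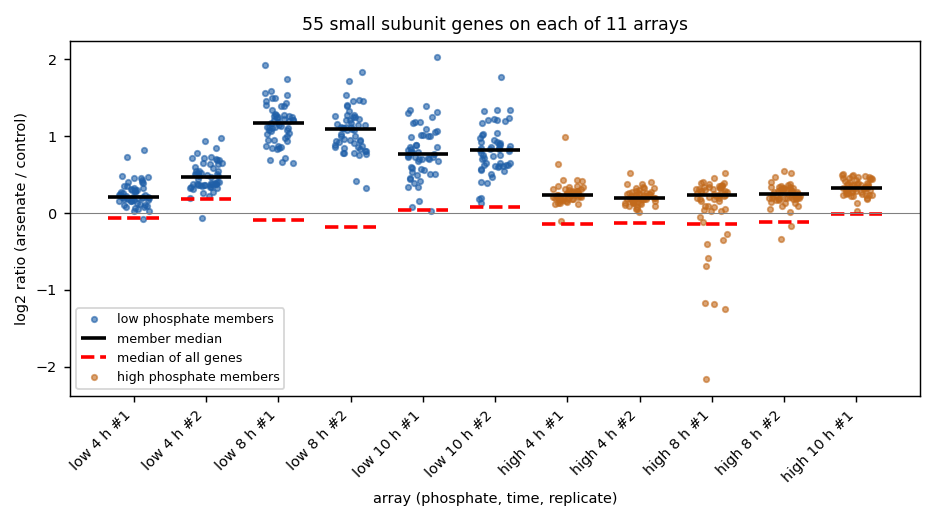
Log2 ratio of arsenate over control (vertical axis) on each of the 11 arrays (horizontal axis), 1 point per small subunit gene, with the median of the 55 genes and the median of all genes on the array marked. In low phosphate the small subunit median exceeded that of all genes by 0.28 to 1.27, and in high phosphate by 0.32 to 0.38.

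Between 4 and 8 h in low phosphate, 46 of the 55 genes rose, where 12.1% of all genes did, and none fell (limma). The median difference was 0.72, compared with -0.11 over all genes. A dye preference that is constant cancels in such a difference between times. With the arrays scaled to an equal spread 29 genes rose, where 8.33% of all genes did. The 9 genes that were not called were RPS8B, RPS9A, RPS16A, RPS22B, RPS27A, RPS28A, RPS28B, RPS30A and RPS30B, and of these RPS9A was the only gene with a difference below 0 (-0.04). On the second 8 h array the value of RPS8B, a body protein, was the mean of spots that disagreed, -0.46 and 1.11.

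Between 8 and 10 h, 22 of the 55 genes fell, where 14.8% of all genes did, and 1 rose, where 30.6% of all genes did; in either direction 45.4% of all genes were called. The median difference was -0.35 for the small subunit genes and 0.22 for all genes. The largest falls were those of RPS21A, by 1.01 (SE 0.17, adjusted p 0.00013), RPS25B, a head protein, by 0.86, RPS14B, a platform protein, by 0.78, and RPS21B by 0.72. RPS9A rose by 1.09 (SE 0.18, adjusted p 7.62e-05). This step depended on the scaling of the arrays: with each array centred on its gene median 39 genes fell and 1 rose, where 24.3% of all genes fell and 21.7% rose. With arrays scaled to an equal spread 3 fell and 3 rose, where 12% of all genes fell and 23.5% rose, and the median was -0.10. Leaving out 1 of the 8 or 10 h arrays left between 8 and 12 genes called in either direction, where between 27.5% and 33.1% of all genes were.

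An F test over the 3 times called 50 of the 55 genes, where 57.4% of all genes were called. The time of the highest mean was 8 h for 49 small subunit genes and 10 h for 6 (RPS2, RPS8B, RPS9A, RPS9B, RPS16A and RPS24A), and was 4 h for none. Among all 4747 genes with a value on every low phosphate array, 24.6% were highest at 8 h, 45.9% at 10 h and 29.5% at 4 h.

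The rise was shared by the structural parts of the subunit. All 21 measured genes for proteins of the head were called higher over the 3 times, with a median of 0.78, and so were all 34 for the body and platform, with a median of 0.75. The 24 A paralogs had a median of 0.67, the 24 B paralogs 0.78 and the 7 single-copy genes 0.73. These counts stand beside the 19.1% of all genes called higher. Among the single-copy genes, RPS3, which lines the entry of the mRNA channel, had a mean of 0.96. RPS31, whose product is made as a fusion with ubiquitin, read 0.18 and 0.44 at 4 h, then 1.14 and 1.25 at 8 h, and 1.19 and 1.18 at 10 h. The 8 and 10 h arrays of RPS31 lay together, well above those at 4 h.

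Genes around the subunit were set beside it. Of the 75 measured genes for cytosolic large subunit proteins, 73 were called higher over the 3 times in low phosphate, with a median of 0.73. Of 20 genes for proteins of the mitochondrial small subunit, 2 were called higher and 1 lower, with a median of -0.02, so that both counts lay below the shares of all genes (19.1% higher and 20.1% lower). ASC1, the scaffold protein bound to the head, had means of 0.01 at 4 h, 1.25 at 8 h and 1.01 at 10 h. STM1, which binds ribosomes and is known to preserve them in starved cells, had 0.29, 0.66 and 0.42.

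Of 17 genes for regulators of ribosomal protein gene transcription, 16 were tested. Over the 3 low phosphate times RAP1, which binds most ribosomal protein promoters, was higher (0.29, adjusted p 0.00203), as was TOD6, a repressor of ribosome biogenesis genes (0.44). STB3, another repressor, and YAK1, a kinase that acts opposite to protein kinase A, were both lower, each by a log2 ratio of -0.24. These calls, 2 in each direction, were fewer than the shares of all genes called. At 4 h TOD6 (0.85), IFH1 (0.61), which activates ribosomal protein genes together with FHL1, HMO1 (0.46) and TOR2 (0.39) were higher, and YAK1 (-0.67), REB1 (-0.49) and ABF1 (-0.39) were lower, where 14.7% of all genes were called higher and 11.6% lower. At 8 h only TOD6 of these 16 was called higher (0.94). RIM15, a kinase of quiescence entry, was lower at 8 h (-0.83), as were the TOR kinase gene TOR1 (-0.74), STB3 (-0.56), TOR2 (-0.37) and YAK1 (-0.33), where 18.3% of all genes were called higher and 30.5% lower. At 10 h RAP1 (0.73), TOR1 (0.63), ABF1 (0.37) and FHL1 (0.37) were higher, and TOD6 (-0.49) and its paralog DOT6 (-0.39) were lower, where 20.2% of all genes were called higher and 12.8% lower. The counts at 8 and 10 h were thus near or below those shares, and TOD6, ABF1, TOR1 and TOR2 were called in opposite directions at different times. FHL1 encodes a factor that binds ribosomal protein promoters with RAP1. None of the 16 was called over the 3 times in high phosphate, where 0% of all genes were called in either direction.

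In high phosphate the small subunit genes were also above 0 on most arrays. Their median was 0.23 and 0.19 on the 4 h arrays, 0.23 and 0.25 on the 8 h arrays, and 0.33 on the 10 h array. Against the median of all genes on the same array they were higher by 0.38 and 0.32, by 0.37 on both, and by 0.34. The 5 arrays thus gave nearly the same median at every time. These distances were shorter than in low phosphate at 8 and 10 h, but a little longer than there at 4 h. Above 0 on all 5 arrays were 43 of the 55 genes, compared with 12.8% of the 4107 genes with a value on each.

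The test called 0 of the 55 genes over the 3 times in high phosphate (limma, with 0% of 4816 genes called). At an unadjusted p below 0.05 there were 1630 genes, 42 of them of the small subunit, and the smallest adjusted p among the 55 was 0.0678. At each of the 3 times taken alone, and in the F test between times, limma also called 0 of the 55 and 0% of all genes; the unadjusted counts among the 55 were 18, 27 and 24 at 4, 8 and 10 h, and 0 for the F test. Means over the 3 times ran from -0.27 to 0.48, with a median of 0.25, against -0.12 over all genes. Calls appeared across the whole table when 1 of the 8 h arrays was left out. Without the first, 40 of the 55 were called higher and none lower, where 7.73% of all genes were called higher and 22.1% lower. Without the second, 29 were called higher and 2 lower, where 5.45% of all genes were called higher and 21.9% lower. Without both, an alternative chosen after seeing the data, 0 of the 55 were called, where 0.0209% of all genes were.

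The highest means in high phosphate were those of RPS30A and RPS30B, paralogs for a small protein of the body near the decoding centre, and of RPS10B. RPS30A read 0.43 and 0.52 at 4 h, then 0.41 and 0.55 at 8 h, and 0.49 at 10 h, with a mean of 0.48 (SE 0.06). RPS30B read 0.34 and 0.38, 0.45 and 0.47, and 0.45, and RPS10B read 0.34 and 0.32, 0.52 and 0.52, and 0.40. All 5 arrays of each of these genes lay between 0.32 and 0.55, and no array of them went below 0 or near it.

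The lowest means were those of RPS9A (-0.27), RPS14B (-0.07) and RPS19A (-0.02). RPS9A read 0.15 and 0.16 at 4 h, then -2.17 and 0.15 at 8 h, and 0.03 at 10 h. RPS19A, a head protein whose human counterpart is mutated in Diamond-Blackfan anaemia, read 0.20 and 0.09, -1.17 and 0.19, and 0.27. For both of them 1 array, the first at 8 h, decided the mean, and the other 4 were above 0. Without that array the mean was 0.11 (adjusted p 0.15) for RPS9A and 0.20 (adjusted p 0.0613) for RPS19A, so that the sign turned.

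RPS14B differed from these in that its low values were spread over several arrays. It read -0.10 and 0.06 at 4 h, then -0.28 and -0.34 at 8 h, and 0.13 at 10 h. It was the only one of the 55 genes below 0 on 3 of the 5 arrays, and both 8 h arrays showed it. Without the first 8 h array its mean was -0.08.

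On the first 8 h array of high phosphate, RPS7B (-1.25) and RPS3 (-1.18) were low in each of their 2 spots, with -0.96 and -1.54 for RPS7B and -0.88 and -1.49 for RPS3. RPS28A was low in 1 of 2 spots (-1.67 and 0.29), and so was RPS6A (-1.01 and 0.31). RPS9A and RPS19A had a single spot. Across the 55 genes the 2 arrays at 8 h had r = 0.217, with 1 point per gene, compared with r = 0.552 at 4 h, given as a description.

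The difference between the conditions was tested directly. Over the 3 matched times the log2 ratio was higher in low than in high phosphate for 44 of the 55 genes, where 19% of all 4841 genes were, and lower for none, where 4.92% were (limma). The median difference was 0.50, against 0.15 over all genes. With each array centred on its gene median the median difference was 0.41, and 43 genes were called, all of them higher in low phosphate. Of all genes 16% were then called in that direction and 10.9% in the opposite direction. Without the first 8 h array of high phosphate 48 genes were called higher, where 28.3% of all genes were. RPS9A had a difference of 1.46 with that array and 1.08 without it, and RPS19A had 0.92 and 0.69. The call of RPS21A was lost with the replicate number as a block. The genes not called with all 11 arrays were RPS8B, RPS20, RPS23A, RPS24A, RPS25A, RPS25B, RPS28A, RPS29A, RPS29B, RPS30A and RPS30B. For RPS24A, RPS25A, RPS25B and RPS29A this depended on the first 8 h array of high phosphate. Their differences were 0.27, 0.29, 0.33 and 0.50 with it, and 0.28, 0.31, 0.36 and 0.35 without it. RPS30A had a difference of 0.13 (SE 0.11) and RPS23A of 0.05 (SE 0.13). On the first 4 h array of high phosphate the 2 spots of RPS23A disagreed, with 0.28 and 1.69.

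By arrays, both low phosphate arrays exceeded both high phosphate arrays at 8 h for 53 of the 55 genes, where this held for 38.4% of 3929 genes. At 10 h both low arrays exceeded the single high array for 48, where it held for 50.4% of genes. At 4 h the low arrays exceeded the high ones for 20, where it held for 44.7%, so that at 4 h the small subunit genes were not apart from the background in this count.

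The paralogs of a family were then compared within each array, as the log2 ratio of the A gene minus that of the B gene. This difference compares how 2 genes responded and not how much RNA each has. Where near-identical coding sequences share labelled cDNA on a spot, the difference is drawn toward 0; the probe sequences were not used here, and the extent of this was not tested. Of 61 gene pairs of the tables that differ only in a final A or B, 60 could be tested and were tested together. All but 2 of these have symbols that start with RP, and 24 are the small subunit pairs themselves. The share of all pairs given below is therefore mainly that of ribosomal protein genes and not that of paralogs in general.

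Over the 3 low phosphate times 14 of the 24 small subunit pairs differed, where 50% of the 60 pairs did (limma). The share called was thus near that of all 60 pairs, most of them of ribosomal protein genes. The A gene was the higher of the pair in 7, where this held for 33.3% of all pairs, and the B gene in 7, where it held for 16.7%. The median size of the difference was 0.20. The B gene was higher for RPS18, RPS0, RPS28, RPS14, RPS21, RPS24 and RPS26, and pairs with the higher A gene included RPS22, RPS9, RPS10, RPS7 and RPS16. The calls of RPS0, RPS10, RPS18, RPS21, RPS22 and RPS28 held under all 12 alternatives of processing or of leaving out an array, and those of the other 8 pairs were lost in 1 or more.

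**Figure D3:**
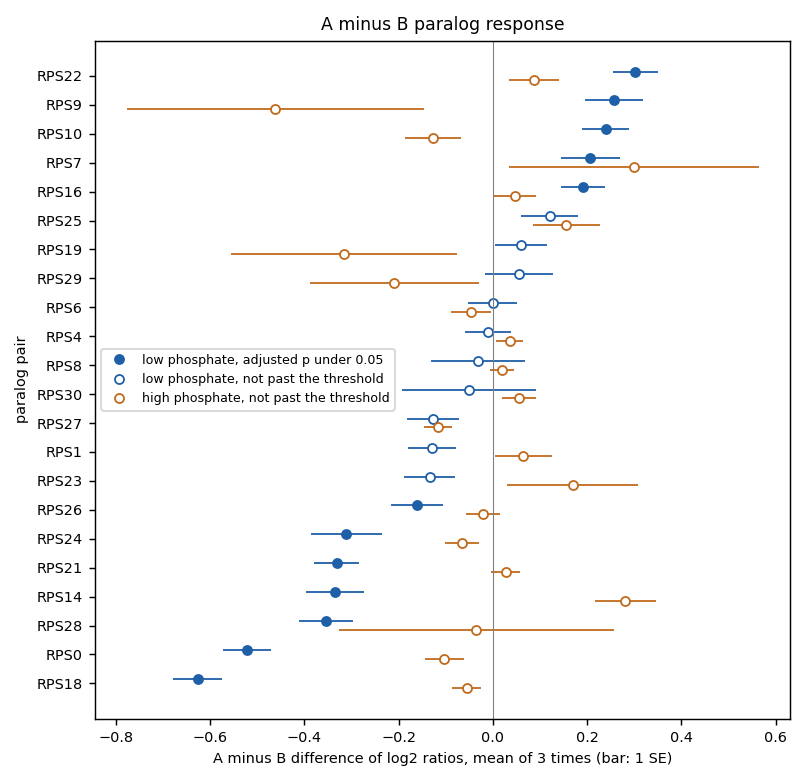
Difference of log2 ratios, A minus B (horizontal axis), for paralog pairs of the small subunit (rows), over the 3 times in low and in high phosphate, with bars of 1 standard error and filled points for adjusted p below 0.05. In low phosphate RPS18 lay lowest, at -0.63, and RPS22 highest of the pairs shown, at 0.30.

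RPS18 had the largest difference in low phosphate, -0.63 (SE 0.05, adjusted p 4.65e-05). RPS18A read 0.20 and 0.40 at 4 h, then 0.88 and 0.88 at 8 h, and 0.71 and 0.74 at 10 h, each below RPS18B on the same array. In high phosphate RPS18A read 0.31 and 0.18, 0.23 and 0.20, and 0.36, and RPS18B read 0.21 and 0.18, 0.35 and 0.32, and 0.47. The gap in low phosphate was widest at 8 h, at -0.95, and in high phosphate the pair lay close together.

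RPS0 followed, with -0.52 (SE 0.05, adjusted p 8.34e-05). RPS0A read 0.02 and 0.31 at 4 h, then 1.07 and 0.85 at 8 h, and 0.58 and 0.70 at 10 h, below RPS0B on 6 of 6 arrays. In high phosphate RPS0A read 0.14 and 0.01, 0.18 and 0.10, and 0.23, and RPS0B read 0.22 and 0.24, 0.19 and 0.18, and 0.34. RPS0 and RPS16 were the only small subunit pairs called at 4 h, where 3.33% of the 60 pairs were, 1.67% in each direction. At 8 h 10 pairs were called, where 33.3% of pairs were, and at 10 h 13, where 53.3% were, so that neither share was far from that of all pairs.

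RPS28 differed by -0.35 (SE 0.06, adjusted p 0.00128). RPS28B, whose protein in yeast is known to act in the decay of its own mRNA, read 0.82 and 0.84 at 4 h, then 1.05 and 1.12 at 8 h, and 0.34 and 0.51 at 10 h. The B gene was above the A gene on 6 of 6 arrays, and the gap was nearly the same at the 3 times (-0.38, -0.36 and -0.32). In high phosphate RPS28A read 0.18 and 0.24, -0.69 and 0.38, and 0.28, and RPS28B read 0.12 and 0.19, 0.31 and -0.17, and 0.22. At 8 h in high phosphate each gene of the pair was below 0 on a different array.

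RPS14 differed by -0.33 (SE 0.06, adjusted p 0.00193). RPS14 is a platform protein that in yeast is known to repress splicing of the RPS14B transcript. RPS14A read 0.20 and 0.41 at 4 h, then 1.21 and 1.11 at 8 h, and 0.45 and 0.62 at 10 h, while RPS14B read 0.02 and 0.38, 1.75 and 1.83, and 1.10 and 0.93. The A gene was above the B gene at 4 h on both arrays and below it on the other 4. Without the 8 h arrays the adjusted p of the mean difference was 0.0514. In high phosphate RPS14A read 0.18 and 0.12, 0.09 and 0.24, and 0.33, above RPS14B on all 5 arrays, with a mean difference of 0.28 (adjusted p 0.205).

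RPS21 differed by -0.33 (SE 0.05, adjusted p 0.000591). RPS21B read 0.10 and 0.38 at 4 h, then 1.54 and 1.46 at 8 h, and 0.71 and 0.86 at 10 h. The pair was level at 4 h (0.01) and apart at 10 h (-0.65). In high phosphate RPS21A read 0.21 and 0.13, 0.22 and 0.27, and 0.27, and RPS21B read 0.28 and 0.22, 0.06 and 0.19, and 0.23. The 2 genes overlapped there.

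RPS24 differed by -0.31 (SE 0.08, adjusted p 0.00798), and this call was lost under 3 of the 12 alternatives. RPS24A read 0.05 and 0.26, 0.65 and 0.86, and 0.70 and 0.83 at the 3 times, and RPS24B read 0.24 and 0.38, 1.50 and 1.28, and 1.06 and 0.75. The B gene was well above the A gene at 8 h, and at 10 h the arrays of the pair overlapped. In high phosphate RPS24A read 0.21 and 0.13, 0.27 and 0.21, and 0.45, and RPS24B read 0.28 and 0.28, 0.35 and 0.19, and 0.50.

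RPS22 differed by 0.30 (SE 0.05, adjusted p 0.00111). RPS22B read 0.28 and 0.65 at 4 h, then 0.94 and 0.83 at 8 h, and 0.85 and 0.83 at 10 h, above RPS22A at 4 h and below it later. In high phosphate RPS22A read 0.24 and 0.15, 0.24 and 0.37, and 0.32, and RPS22B read 0.16 and 0.08, 0.32 and 0.20, and 0.18.

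**Figure D4:**
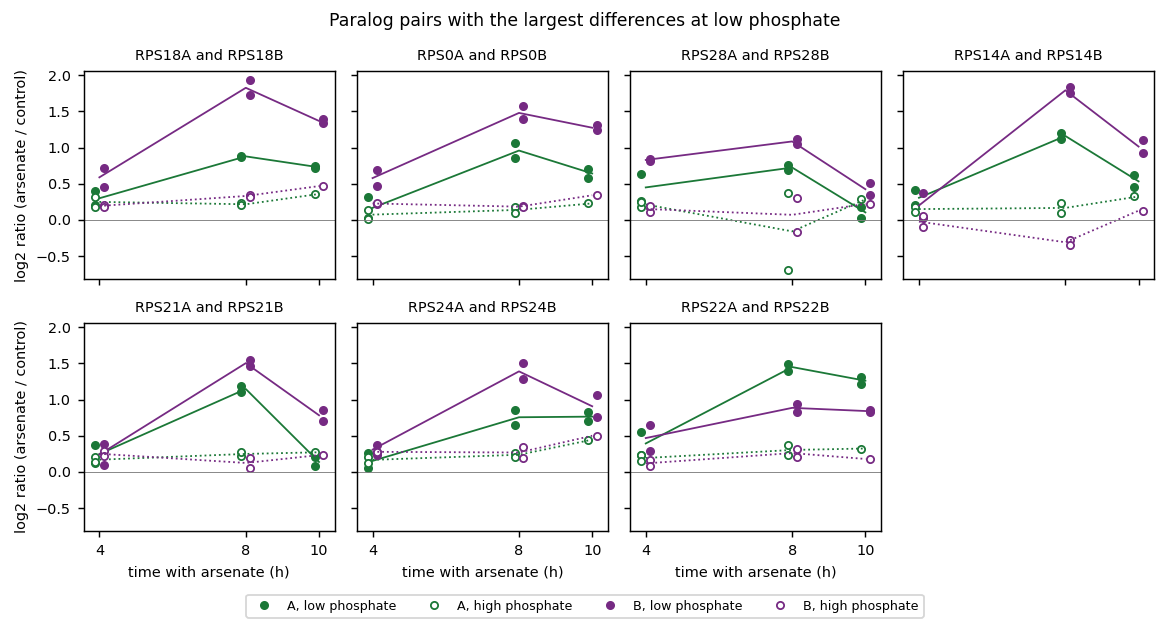
Log2 ratio of arsenate over control (vertical axis) against time in hours (horizontal axis) for both genes of the pairs RPS18, RPS0, RPS28, RPS14, RPS21, RPS24 and RPS22, with 1 point per array (A green, B purple; filled for low and open for high phosphate) and lines through the means (dotted for high phosphate). RPS0 and RPS28 are apart from 4 h on, while RPS21 and RPS14 part at 8 h or later.

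The paralog difference itself changed with time in low phosphate for 11 of the 24 pairs, where 48.3% of all pairs did (limma, F test), a share near that background. They included RPS1, RPS7, RPS9, RPS14, RPS16, RPS18, RPS21, RPS22 and RPS26. Leaving out either 4 h array, which leaves a single array at that time, removed these calls and most of those among all pairs. RPS9 changed order: A minus B was 0.40 at 4 h, -0.24 at 8 h and 0.61 at 10 h. RPS7, close to level at 4 h (-0.06) and 8 h (0.05), reached 0.63 at 10 h. RPS1 went the other way at 10 h, with -0.45. RPS26, a platform protein at the mRNA exit, was apart at 8 h (-0.47) and near level at 4 h (-0.09) and 10 h (0.08).

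In high phosphate no small subunit pair was called by limma, nor was any of the 60 pairs (0%). At an unadjusted p below 0.05 there were 8 pairs, 2 of them of the small subunit, RPS14 and RPS27. The median size of the difference was 0.08. Without the first 8 h array 5 small subunit pairs were called (23.3% of all pairs tested), without the second 8 (37.3%), and without both 2 (10%), so that these shares were near those of all pairs.

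The test of the change of the paralog difference between conditions called 6 of the 24 pairs, where 15% of the 60 were called. In 2 of the 6 the change was toward A, where 8.33% of all pairs were called, and in 4 toward B, where 6.67% were. RPS14 had -0.62 (SE 0.10, adjusted p 0.0032), RPS18 -0.57 (SE 0.06, adjusted p 0.00226), RPS0 -0.42 (SE 0.06, adjusted p 0.0032) and RPS21 -0.36 (SE 0.05, adjusted p 0.00273), each with B relatively higher in low phosphate. RPS10 had 0.37 (adjusted p 0.0116), with A relatively higher in low phosphate. RPS28 was not among them (-0.32, SE 0.26, adjusted p 0.463). Without the first 8 h array of high phosphate it was called (-0.57, SE 0.08, adjusted p 0.00202), as was RPS9 (0.44, adjusted p 0.00635), and 28.3% of all pairs were.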

How the data were processed

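RNA was compared on 11 two-channel arrays. The deposited log2 ratios (log base taken, not stated) were normalized by the authors using spots with flag value 0, per the labels; no source used here gives the method, the scanner or the probe sequences. Spots were named through the platform annotation; 9202 of 10807 spots in the low phosphate table and 9271 in the high phosphate table named 1 gene, and spots were averaged per gene. Tests used limma 3.58.1 in R 4.3.3 (lmFit, eBayes), 1 mean per time, on genes with a value in every group and residual degrees of freedom (5185, 4816 and 4841 genes), and were tested on simulated data. Time means weigh equally; the lone high phosphate 10 h array is assumed to vary like the others. Paralog tests used A minus B on each array over 60 pairs.

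Genes given array by array were the 5 highest and 3 lowest by low phosphate mean, the 3 highest and 3 lowest by high phosphate mean, and the 8 called pairs of largest difference. Others, such as RPS3 and RPS31, were named after their values were seen. Some members are counted but not reported here by name. The members and lists were chosen with earlier results of these data known. Same-numbered low phosphate arrays deviated together only weakly (r of 0.136, 0.190 and 0.109 for the 3 pairs of times). The labels do not say what they share. The main tests did not pair them, and the replicate number entered only as a block in 1 of the alternatives. Alternatives were centring, scaling, the median of spots, genes on every array, the replicate block and leaving out arrays.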

Additional observations from a re-analysis of the deposited data

Results flagged for a closer look

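Some small subunit genes had a log2 ratio that differed between times or conditions by a test of the difference itself. From 4 to 8 h in low phosphate 46 rose (12.1% of all genes did), and from 8 to 10 h 23 changed (45.4% of all genes). With both directions pooled the count from 8 to 10 h was near the share of all genes. By direction it was not: 22 fell (14.8% of all genes) and 1 rose (30.6% of all genes). Between low and high phosphate over matched times 44 were higher in low phosphate (19% of all genes). For paralog pairs the counts were 11 across the low phosphate times (48.3% of all pairs) and 6 between conditions (15% of all pairs). The count across times was near the share of all pairs. Phosphate and array design cannot be told apart in the comparisons between conditions.

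Among the genes given array by array, the log2 ratio in low minus high phosphate was 1.46 for RPS9A, 1.07 for RPS14B, 0.93 for RPS18B, 0.92 for RPS19A and 0.86 for RPS0B. It was 0.76 for RPS22A, 0.74 for RPS10A, 0.64 for RPS21B, 0.63 for RPS28B, 0.55 for RPS22B and 0.52 for RPS24B. It was 0.45 for RPS14A, 0.44 for RPS0A, 0.37 for RPS10B, 0.36 for RPS18A and 0.28 for RPS21A. The values of RPS9A and RPS19A hold the first 8 h array of high phosphate, on which they read -2.17 and -1.17; without it they were 1.08 and 0.69.

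The difference of the paralogs, A minus B, changed between low and high phosphate by -0.62 for RPS14, -0.57 for RPS18, -0.42 for RPS0, -0.36 for RPS21 and 0.37 for RPS10.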

How the results depend on the processing

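Over the 3 low phosphate times no called direction turned under any alternative run, among the genes given array by array and among the pairs. For the other comparisons of genes in low phosphate and between conditions, only the balance of higher and lower calls was compared. It did not turn, but from 8 to 10 h with arrays scaled it was level, with 3 higher and 3 lower. In high phosphate the main tests called no gene, so a turn of calls could not be seen there. With arrays scaled to an equal spread, 29 genes rose from 4 to 8 h, where 8.33% of all genes did. From 8 to 10 h 6 changed under this scaling, where 35.5% of all genes did. With arrays centred, 40 changed from 8 to 10 h, where 46% of all genes did. Without both 8 h arrays, added after seeing the data, 2 paralog pairs were called in high phosphate, where 10% of all pairs were. Leaving out 1 array in turn gave 55 to 55 genes over the 3 low phosphate times, 9 to 42 at 4 h, 53 to 55 at 8 h, 39 to 52 at 10 h, 31 to 50 from 4 to 8 h and 8 to 31 from 8 to 10 h. In high phosphate the median of the 55 genes lay between 0.22 and 0.27 over the 3 times, 0.19 and 0.23 at 4 h, and 0.22 and 0.25 at 8 h. No 10 h value could be had without its only array. Between conditions the median difference of the 55 genes lay between 0.45 and 0.54. For pairs it gave 8 to 16 over the low phosphate times, 0 to 8 in high phosphate, 0 to 13 across times and 5 to 13 between conditions. In each of these comparisons the share of all genes or of all pairs called also moved with the array left out, as given above for 4 h. The ranges of these counts are therefore not particular to the small subunit genes and pairs. The cause was not tested. With the replicate block 45 genes were called from 4 to 8 h, 19 from 8 to 10 h and 43 between conditions. Each was among those called without it, and 33.3%, 45.2% and 20% of all genes were called in either direction. At 4 h the block gave 25 (26.2% of all genes), of which 23 were shared. For pairs across times it gave 13 (51.7% of all pairs), with 11 shared. In high phosphate it called 0 (0% of all genes), and same-numbered arrays there share only a number (r of deviations -0.02). Without the 8 h arrays, 53 of the 55 genes were called higher over the low phosphate times, where 14.5% of all genes were. RPS21A (0.19, adjusted p 0.17 in limma) and RPS25B (0.23, adjusted p 0.101) were not. Signal over background was not given in the values used here.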
